A study of Mus musculus with 32 samples.

Results

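Neutrophil granule genes and calprotectin are here the genes S100a8, S100a9, Ngp, Ltf, Camp, Mpo, Elane, Retnlg, Ly6g and Padi4, taken as the array probes that carry these gene symbols. Of these 10 genes, 9 had a probe, with 1 probe each, among 19505 genes measured, and no probe carried the symbol Ly6g. They were followed on 32 arrays of RNA from male C57BL/6J mice, aged 6 to 12 weeks and weighing 20 to 25 g, whose spinal cord or cerebrum was injured by photothrombosis, a lesion in which light closes vessels that hold a photosensitive dye. The 8 groups of 4 arrays were spinal cord controls, spinal cord at day 1, day 3 and day 7 after spinal photothrombosis, cerebral controls, and cerebrum at day 1, day 3 and day 7 after cerebral photothrombosis. No mouse carried an altered gene. The labels call the controls of each model by its name and do not say whether they had surgery, and they do not say that each array came from a separate animal, so p-values measure the spread between these arrays.

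Neutrophils are made in the bone marrow and reach an injured tissue from the blood. They load their granules in waves as they mature. The azurophil or primary granules hold myeloperoxidase and elastase and are filled at the promyelocyte stage, the specific granules hold lactoferrin, cathelicidin and neutrophilic granule protein and are filled later, and the mRNAs of these proteins are largely gone from mature blood neutrophils. S100a8 and S100a9 form calprotectin, a metal-binding protein that fills the cytosol of mature neutrophils and is also made by some monocytes. Within neutrophils these genes therefore differ in the stage at which they are expressed, and S100a8 and S100a9 mRNA can also come from monocytes. In bulk tissue, fewer cells of a type and less RNA per cell cannot be told apart.

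In the GRCm38.p6 annotation, S100a8 (Entrez identifier 20201) lies on chromosome 3 from 90669071 to 90670034 and S100a9 (20202) on chromosome 3 from 90692630 to 90695721. The specific granule genes Camp, Ngp and Ltf lie within 1195 kb on chromosome 9, Camp (12796) from 109847377 to 109849456, Ngp (18054) from 110419808 to 110423012 and Ltf (17002) from 111019292 to 111042766. Mpo (17523) is on chromosome 11 from 87793784 to 87804412, Elane (50701) on chromosome 10 from 79886312 to 79888216, Retnlg (245195) on chromosome 16 from 48872608 to 48874498 and Padi4 (18602) on chromosome 4 from 140745508 to 140774239. The promoter windows of the 4 members with the largest rise in the injured cord at day 7 are shown, picked by the size of that rise alone. Each runs from 250 bases before the annotated start to 50 bases after it, 5′ to 3′ on the gene's strand, from RefSeq's GRCm38.p6 tables, and capitals mark matches to 3 motifs on either strand.
S100a8, chr3:90668821-90669120, plus strand: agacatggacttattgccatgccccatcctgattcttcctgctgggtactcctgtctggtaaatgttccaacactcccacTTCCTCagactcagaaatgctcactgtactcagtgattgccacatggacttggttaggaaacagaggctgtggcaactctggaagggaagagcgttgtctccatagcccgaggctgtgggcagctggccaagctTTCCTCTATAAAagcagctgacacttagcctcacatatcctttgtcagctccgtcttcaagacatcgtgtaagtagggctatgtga
Ngp, chr9:110419558-110419857, plus strand: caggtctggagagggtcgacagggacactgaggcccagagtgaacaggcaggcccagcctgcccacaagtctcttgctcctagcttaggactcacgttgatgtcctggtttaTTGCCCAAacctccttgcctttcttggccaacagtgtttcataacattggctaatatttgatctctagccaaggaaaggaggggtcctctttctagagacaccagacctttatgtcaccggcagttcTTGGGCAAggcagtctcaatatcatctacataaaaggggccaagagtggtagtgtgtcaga
S100a9, chr3:90695672-90695971, minus strand: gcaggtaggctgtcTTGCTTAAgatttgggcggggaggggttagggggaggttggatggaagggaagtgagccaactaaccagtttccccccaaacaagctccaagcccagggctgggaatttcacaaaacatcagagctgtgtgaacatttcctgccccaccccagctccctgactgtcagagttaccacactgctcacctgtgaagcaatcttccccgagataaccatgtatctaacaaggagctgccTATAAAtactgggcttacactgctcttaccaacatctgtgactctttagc
Camp, chr9:109849407-109849706, minus strand: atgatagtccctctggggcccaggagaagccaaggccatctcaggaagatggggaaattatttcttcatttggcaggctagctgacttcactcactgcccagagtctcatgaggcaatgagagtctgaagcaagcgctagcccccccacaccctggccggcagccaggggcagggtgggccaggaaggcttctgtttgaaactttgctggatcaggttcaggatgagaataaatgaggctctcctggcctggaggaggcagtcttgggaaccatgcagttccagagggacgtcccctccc
The motifs searched were TTGCNNAA, bound by C/EBP factors, GAGGAA, the core bound by PU.1, and TATAAA, the TATA box, and 10.8%, 28.3% and 13.6% of all 32851 windows of this length hold them. The S100a8 window has 2 PU.1 cores and 1 TATA box, and the second core and the TATA box adjoin without overlap, so that they read as 1 run of capitals. The Ngp window has 2 C/EBP matches, the S100a9 window 1 C/EBP match and 1 TATA box that begins at the annotated start, and the Camp window has none of the 3. These matches are a description of the letters in the windows and not of binding.

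Each level below is a log2 value relative to the mean of the 4 cerebral controls for that gene, so 0 is the cerebral control level, and levels of different genes cannot be set against each other. Values of 4 arrays are given in the order of replicates 1 to 4. The day 3 and day 7 arrays had been centred apart from the controls by the submitters' processing, and their offset was rebuilt for each probe. A change between arrays that were centred apart had to exceed a bound for the uncertainty of that offset, at least 0.196 at day 3 and 0.262 at day 7. Both bounds add where day 7 is set against day 3, to at least 0.458. Changes from control at day 1 were tested against 0, so counts at day 1 and at later days stand on unlike thresholds. A lower count at a later day is not by itself a lower level. Positions of single arrays across sets centred apart use the rebuilt offset, with no bound. Changes are log2 differences between group means ± SE, with n = 4 arrays per group throughout. Where a 95% interval is given, it comes from this SE and leaves out the uncertainty of the offset. All tests are limma's moderated t, taken against the bound where one applies and fitted over all 19505 genes. A gene is said to have changed where its Benjamini-Hochberg adjusted p was under 0.05. The tissue labels matched their markers, with Tbr1, a transcription factor of cortical neurons, lower in the cord controls than in the cerebral controls (-4.60) and Hoxc8, a trunk homeobox gene, higher (5.79). Array 1 of cord day 3 stood apart from the rest, at a weight of 0.225 in limma's array weights (1 being average) and an SD of 0.357 across genes. The cord control arrays carried skeletal muscle RNA in unequal amounts, most of it on 2 of them, described with the controls. The 4 cord day 7 samples have titles that begin with P, and the other 28 have titles that begin with G. What the letters stand for is not given in the labels, and in every comparison with cord day 7 the letter and the day cannot be told apart.

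The injured cord held far more of these transcripts at day 7 than the control cord, whereas no member changed in the cerebrum at any day. Of 9 measured members, 8 rose in the cord at day 7, by log2 0.68 to 4.26, where 13.1% of all genes were called higher. With quantile normalisation on top of the values 5 rose, and 2506 of 19505 genes were called in either direction. At day 1 the calprotectin genes and Retnlg rose, and at day 3 S100a8 was the member that passed. The specific granule genes Ngp, Camp and Ltf passed at day 7 and not at day 1 or day 3. All 4 day 7 arrays lay above all 4 cord controls for 7 of 9 members, as they did for 19% of all genes.

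**Figure D1:**
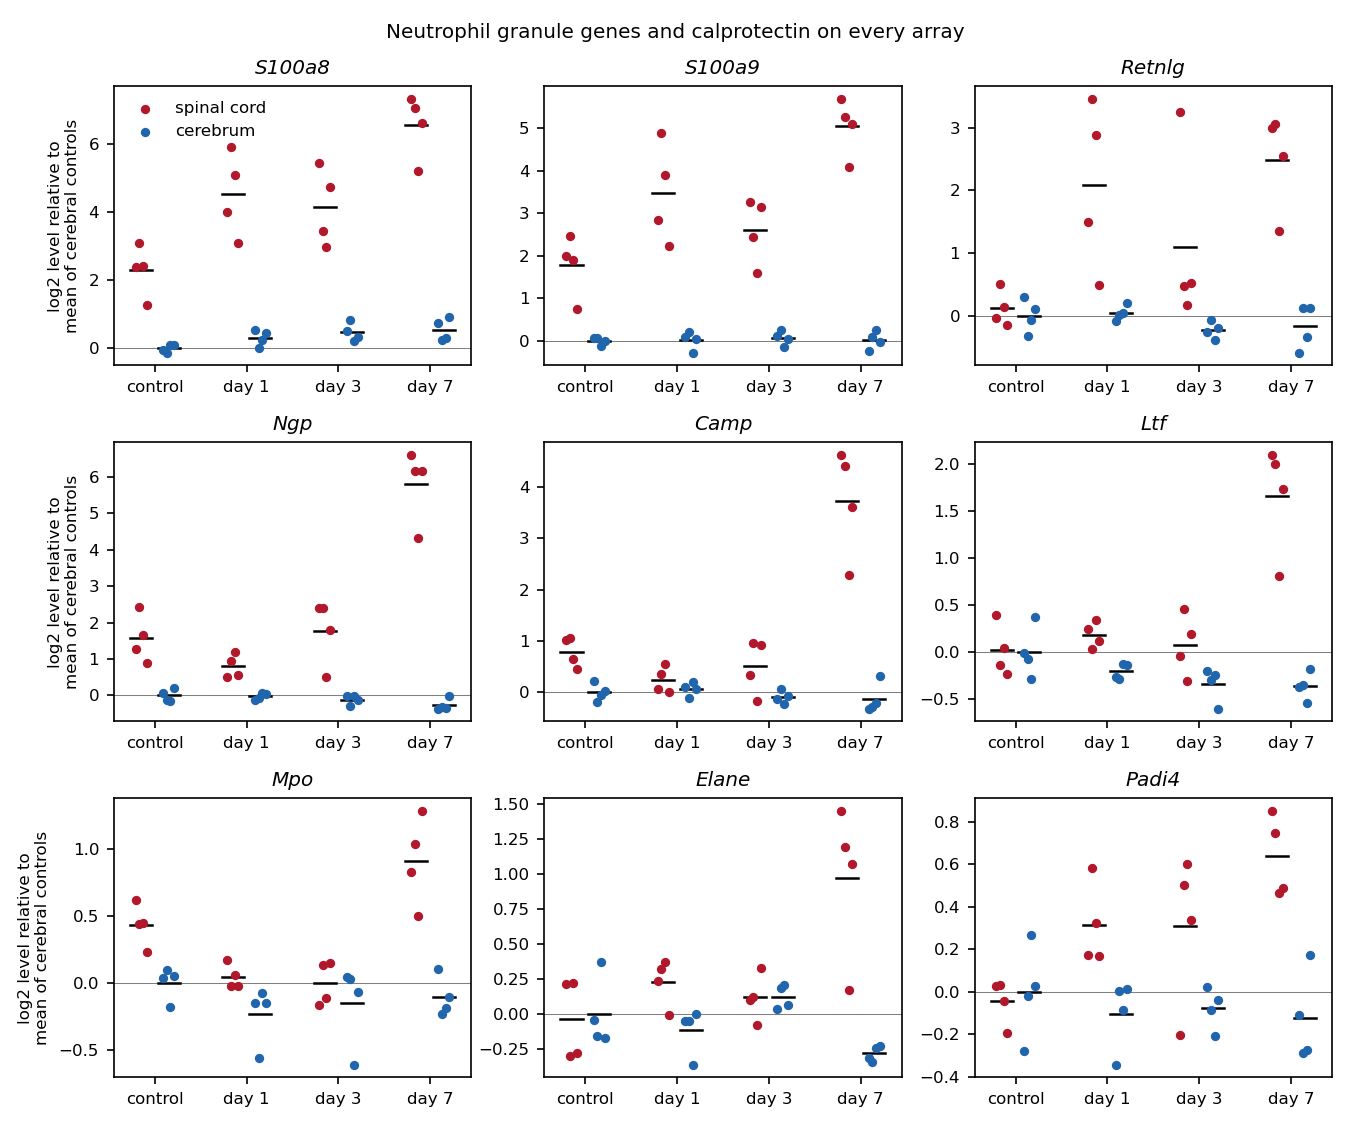
Log2 level of each member on every array (vertical axis, relative to the mean of the cerebral controls) by group (horizontal axis), with spinal cord in red left of cerebrum in blue and a black bar at each group mean (4 arrays). The cord day 7 arrays lie highest for Ngp, Camp and Ltf, S100a8 and S100a9 are also raised at day 1, and the cerebral arrays stay within -0.13 to 0.92 for S100a8. The vertical scale differs between panels.

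S100a8 encodes the smaller chain of calprotectin. It lay at 2.37, 3.10, 2.41 and 1.26 in the cord controls, 3.99, 5.92, 5.10 and 3.09 at cord day 1, 5.43, 3.43, 2.98 and 4.73 at cord day 3, with 7.32, 7.04, 5.21 and 6.61 at cord day 7. The day 7 arrays lay above all 4 controls, and day 1 array 4 and day 3 array 3 overlapped the controls. The change from cord control was 2.24 ± 0.47, adjusted p = 0.000549, at day 1, 1.86 ± 0.47, adjusted p = 0.00728, at day 3 and 4.26 ± 0.47, adjusted p = 2.05e-08, at day 7, a 19.2-fold rise. Among all genes 15.8% were called higher at cord day 1 and 9.28% at cord day 3. The day 3 call was lost without array 1 of that group (1.43, adjusted p = 0.0505) and in a fit of the compared groups alone (adjusted p = 0.0584). Day 7 exceeded day 1 by 2.02 ± 0.47, adjusted p = 0.00342, and day 3 by 2.40 ± 0.47, adjusted p = 0.00592, whereas day 3 and day 1 did not differ beyond their spread (-0.38 ± 0.47, adjusted p = 0.851).

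S100a9, which encodes the larger chain, lay at 2.0, 2.46, 1.89 and 0.75 in the cord controls, 2.85, 4.89, 3.89 and 2.22 at day 1, 3.26, 2.43, 1.60 and 3.15 at day 3, with 5.69, 5.26, 4.09 and 5.10 at day 7. Its day 7 arrays lay above every other cord array but day 1 array 2. It rose at day 1 (1.69 ± 0.39, adjusted p = 0.0014) and at day 7 (3.26 ± 0.39, adjusted p = 1.26e-07), a 9.59-fold rise, and its day 3 change of 0.84 ± 0.39 did not pass (adjusted p = 0.232). The order of the cord means was control, day 3, day 1 and day 7 for both chains. Day 7 exceeded day 1 by 1.57 ± 0.39, adjusted p = 0.00778, and day 3 by 2.42 ± 0.39, adjusted p = 0.000685. The S100a8 difference between day 7 and day 3 did not pass in a fit of the compared groups alone (adjusted p = 0.123), nor did the S100a9 difference between day 7 and day 1 (0.0524), which was also lost without array 4 of day 1 (1.16, adjusted p = 0.0692). With quantile normalisation on top of the values, the day 7 change from control of S100a8 was 1.95 and passed (adjusted p = 0.000766), and the day 7 change from control of S100a9 was 1.02 and no longer passed (adjusted p = 0.0634), and the differences between day 7 and day 1 were 0.13 for S100a8 and -0.22 for S100a9, neither of which passed. The differences between day 7 and day 3 were then 1.19 and 1.00, which did not pass either.

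The chains moved together from array to array. Within the 4 cord groups, after each group's mean was taken off, their values had a Pearson correlation of 0.968 and a Spearman correlation of 0.974 over 16 arrays, which share the RNA sample and its processing for both genes. Arrays 2 and 3 were the highest of cord day 1 for both chains, and array 4 was the lowest. The spread within cord groups was wide, with a pooled SD of 1.03 for S100a8 and 0.86 for S100a9, against 0.25 and 0.17 within cerebral groups. The SE of each gene is shared over all 8 groups, so for both chains it is too narrow for the cord and too wide for the cerebrum. The same holds for Retnlg (SD of 1.07 in the cord and 0.24 in the cerebrum), Ngp (0.77 and 0.14) and Camp (0.63 and 0.19). Mpo was the one member without a wider spread in the cord, at 0.21 within cord groups and 0.21 within cerebral groups.

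Retnlg encodes a resistin-like protein that marks mature mouse neutrophils. It lay at -0.04, 0.50, 0.13 and -0.15 in the cord controls and 1.49, 3.46, 2.88 and 0.48 at cord day 1, where arrays 2 and 3 were again highest and array 4 lay within the controls. At cord day 3 array 1 stood alone at 3.25, and the other 3 lay between 0.16 and 0.51. At cord day 7 the values were 3.00, 3.05, 1.35 and 2.55, all above the controls. Retnlg rose at day 1 (1.97 ± 0.49, adjusted p = 0.00264) and day 7 (2.38 ± 0.49, adjusted p = 0.000564), and day 3 did not pass (0.99 ± 0.49, adjusted p = 0.25). Its day 7 and day 1 levels did not differ beyond their spread (0.41 ± 0.49, adjusted p = 0.891). Within cord groups Retnlg followed S100a8, with a Pearson correlation of 0.881 and a Spearman correlation of 0.856 over 16 arrays.

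Ngp, which encodes neutrophilic granule protein, a cathelicidin-related protein of specific granules, had another course. It lay at 1.28, 2.44, 1.65 and 0.90 in the cord controls, 0.52, 0.95, 1.18 and 0.56 at day 1, 2.39, 2.40, 0.50 and 1.80 at day 3, with 6.61, 6.15, 4.33 and 6.16 at day 7. Every day 7 array lay above every other cord array, and the day 1 values overlapped the lower end of the controls. The day 7 change was 4.24 ± 0.35, adjusted p = 4.31e-11, a 19-fold rise, and the day 1 change of -0.76 ± 0.35 did not pass (adjusted p = 0.0958). Without control array 4, the day 1 change was -0.98 and passed (adjusted p = 0.0445), and with quantile normalisation it was -0.90 and passed (adjusted p = 0.0155). Quantile normalisation also gave smaller differences that still passed, 1.95 for day 7 against control (adjusted p = 2.6e-05) and 2.85 for day 7 against day 1. Ngp had the largest difference of the 9 members between day 7 and day 1, at 5.01 ± 0.35, with a 95% interval of 4.29 to 5.72, beside 1.05 to 2.99 for S100a8 and -0.59 to 1.41 for Retnlg.

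Camp encodes the cathelicidin antimicrobial peptide. Its values were 1.02, 1.05, 0.65 and 0.45 in the cord controls, 0.06, 0.34, 0.54 and 0.01 at day 1, 0.34, 0.97, -0.18 and 0.92 at day 3, with 4.63, 4.41, 2.28 and 3.62 at day 7. The day 7 arrays stood above all other cord arrays, while the day 1 and day 3 arrays reached from the range of the controls to below it. Camp rose at day 7 by 2.94 ± 0.30, adjusted p = 4.99e-09, and its changes of -0.55 ± 0.30 at day 1 and -0.28 ± 0.30 at day 3 did not pass. The day 1 value passed in a fit of the compared groups alone (adjusted p = 0.0317) and with quantile normalisation (-0.68, adjusted p = 0.0173). Day 7 exceeded day 1 by 3.49 ± 0.30, adjusted p = 2.06e-10, and day 3 by 3.22 ± 0.30, adjusted p = 4.05e-08.

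Ltf, the gene of the iron-binding protein lactoferrin, differed little between the cord controls (0.39, -0.13, 0.04 and -0.23), day 1 (0.25, 0.03, 0.34 and 0.12) and day 3 (-0.04, 0.46, -0.31 and 0.19). At day 7 it lay at 2.10, 2.0, 0.81 and 1.74, above all of these. The day 7 change was 1.64 ± 0.19, adjusted p = 3.77e-07, and the changes at day 1 and day 3 were 0.17 and 0.06 and did not pass. Array 3 was the lowest of cord day 7 for Ngp, Camp and Ltf and for the other 6 members. Within cord groups Camp correlated with Ltf at a Pearson r of 0.906 and with Ngp at 0.823 (Spearman 0.83 and 0.73), over the same 16 arrays.

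**Figure D2:**
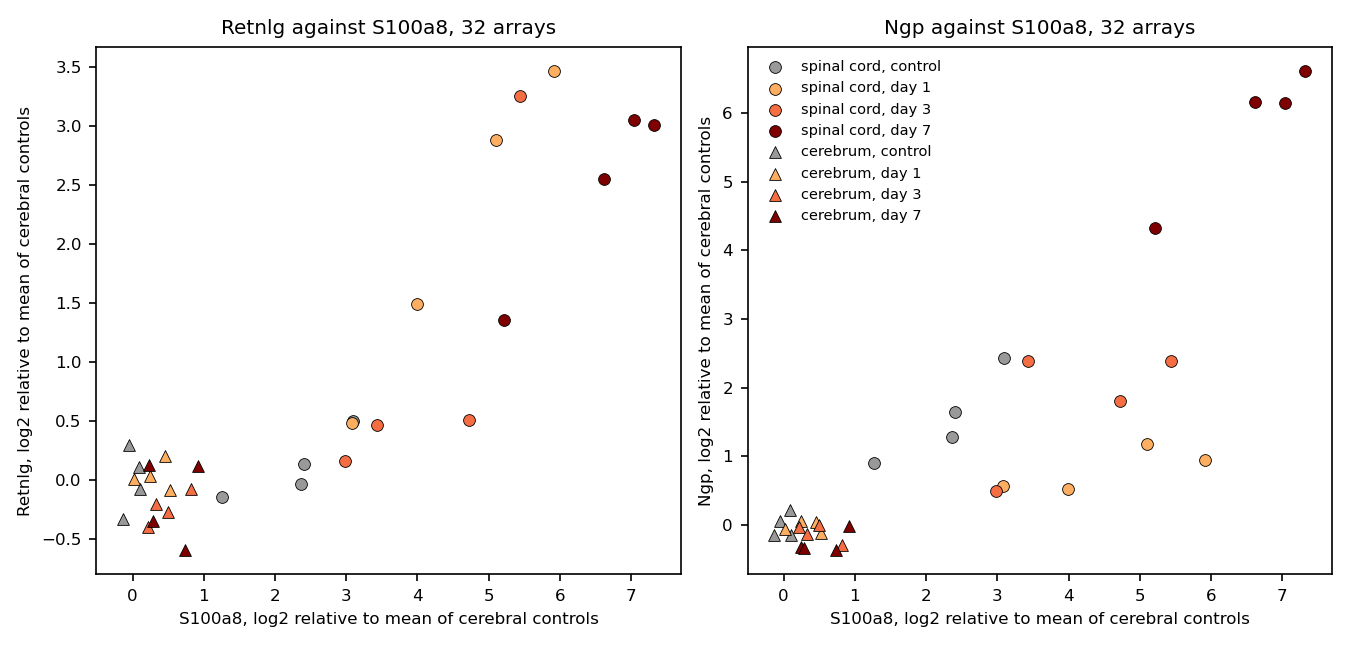
Retnlg (left) and Ngp (right) against S100a8 on 32 arrays, all as log2 values relative to the mean of the cerebral controls, with circles for spinal cord, triangles for cerebrum and colour for the day. Cord day 1 arrays with S100a8 up to 5.92 have Ngp of at most 1.18, while cord day 7 arrays with S100a8 of 5.21 or more have Ngp of 4.33 or more.

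The chromosome 9 interval from Camp to Ltf held 27 other tested genes. At cord day 7, 3 of them were higher and 1 lower, where 13.1% of all genes were higher and 12.9% lower, and their median change was -0.04, beside -0.10 for all genes. The largest of these changes was that of Prss46, a serine protease gene (1.43 ± 0.18, adjusted p = 3.13e-06).

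The primary granule genes showed smaller changes. Mpo, the gene of myeloperoxidase, lay at 0.62, 0.44, 0.45 and 0.23 in the cord controls, 0.18, -0.02, 0.06 and -0.02 at day 1, -0.17, 0.14, -0.11 and 0.15 at day 3, with 0.83, 1.03, 0.50 and 1.28 at day 7. All day 1 and day 3 arrays lay below the lowest control, as in 13.4% and 14.5% of all genes, and the day 7 arrays overlapped the controls. Mpo fell at day 1 (-0.39 ± 0.14, adjusted p = 0.0395), where 16.1% of all genes were called lower, and the fall did not pass without control arrays 1 and 2 (-0.29, adjusted p = 0.242) or when any of 6 single arrays of the compared groups was left out. The day 3 change of -0.43 ± 0.14 did not pass against its bound (adjusted p = 0.212) and passed with the offset taken as exact (adjusted p = 0.018). At day 7 Mpo was 0.48 ± 0.14 from control, which did not pass (adjusted p = 0.224), and 0.61 without array 3 of day 7, which did (adjusted p = 0.043). With the offset taken as exact the day 7 change passed (adjusted p = 0.00678), and with quantile normalisation it was 0.05 and did not. Mpo was higher at day 7 than at day 1, by 0.86 ± 0.14, adjusted p = 0.0011.

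Elane encodes neutrophil elastase. Its cord values were 0.21, -0.30, 0.22 and -0.28 in controls, 0.24, 0.32, 0.37 and -0.00684 at day 1, 0.10, 0.12, -0.08 and 0.33 at day 3, with 1.45, 1.19, 0.17 and 1.07 at day 7. Of the day 7 arrays, 3 lay above all controls, and array 3 fell among them. Elane rose at day 7 (1.00 ± 0.17, adjusted p = 0.000606), a 2.01-fold rise, and not at day 1 (0.27 ± 0.17, adjusted p = 0.255) or day 3 (0.15). With quantile normalisation the day 7 change was 0.55 and did not pass (adjusted p = 0.188).

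Padi4 encodes the peptidylarginine deiminase that citrullinates histones when neutrophils release their chromatin. It lay at 0.03, 0.03, -0.04 and -0.19 in the cord controls, 0.18, 0.58, 0.33 and 0.17 at day 1, -0.20, 0.50, 0.60 and 0.34 at day 3, with 0.85, 0.75, 0.46 and 0.49 at day 7. All day 1 and day 7 arrays lay above the controls, as in 13.3% and 19% of all genes, and so did 3 of 4 arrays at day 3. The day 7 rise passed (0.68 ± 0.14, adjusted p = 0.0142), though not without day 7 array 1 (0.61, adjusted p = 0.0599) or with quantile normalisation (0.47, adjusted p = 0.345), and the day 1 change did not (0.36 ± 0.14, adjusted p = 0.0547). Of 4 other Padi genes, 1 rose and 1 fell at cord day 1, and none passed at cord day 7 (unadjusted p under 0.05 in 0 of 4, limma). Padi2, which is expressed in oligodendrocytes, was the one that fell (-1.42).

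**Figure D3:**
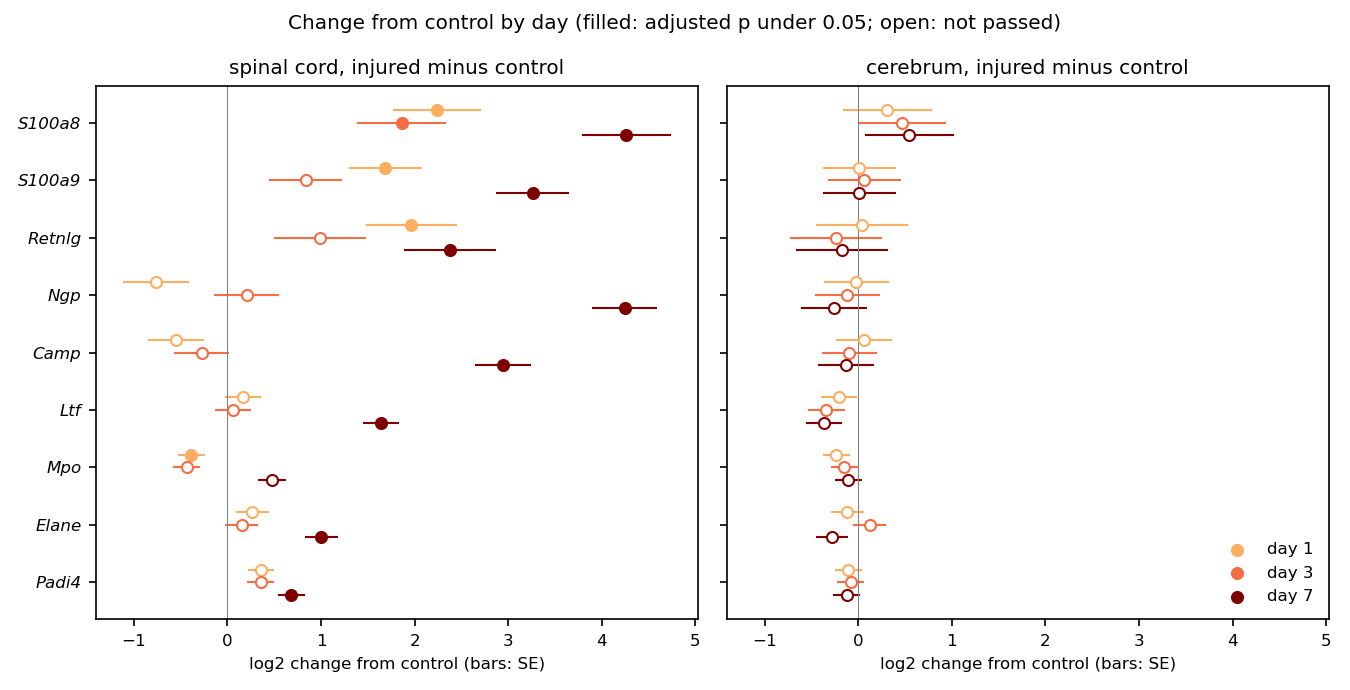
Log2 change from the control of the same tissue (horizontal axis, bars show SE) for each member in the spinal cord (left) and the cerebrum (right) at day 1, day 3 and day 7, with 4 arrays per group. Filled points passed an adjusted p of 0.05. In the cord 8 of 9 members passed at day 7, and in the cerebrum no point is filled.

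With quantile normalisation the cord day 7 changes of Camp, Ltf and Retnlg were 1.14, 0.80 and 1.25 and still passed (adjusted p = 0.00244, 0.0202 and 0.0389). Between days in the cord, 7 of 9 members were higher at day 7 than at day 1, where 11.2% of all genes were, and 5 of 9 were higher than at day 3, where 2.52% were. The bound was at least 0.262 against day 1 and at least 0.458 against day 3, so these counts stand on unlike thresholds. With the offset taken as exact, 8 of 9 passed against day 3, where 5236 of all genes were called. No member differed between day 3 and day 1 (8.67% of all genes did), and 1 of 9 reached an unadjusted p under 0.05 in limma's test, Ngp at 0.97 (adjusted p = 0.129). The comparisons of day 7 with control, day 1 and day 3 share the day 7 arrays, so they are not independent. The median change of the members from cord control was 0.27 at day 1, 0.20 at day 3 and 2.38 at day 7, beside 0.02, -0.08 and -0.10 over all genes.

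In the cerebrum, 0 of 9 members changed at day 1, day 3 or day 7, and 0 of 9 had an unadjusted p under 0.05 in limma's test. Among all genes 8.91% were higher and 8.22% lower at day 1. At day 3, 2.86% of genes were higher and 2.08% lower, and at day 7 the calls covered 3.06% higher and 1.03% lower. The median change of the members was -0.02, -0.09 and -0.13 on these days. S100a8 lay at -0.05, -0.13, 0.10 and 0.09 in the cerebral controls, 0.53, 0.02, 0.25 and 0.45 at day 1, 0.50, 0.82, 0.22 and 0.33 at day 3, with 0.74, 0.24, 0.28 and 0.92 at day 7. With the rebuilt offset, all day 3 and day 7 arrays lay above the 4 controls, as did 3 of 4 at day 1. Likewise 12.5% of all genes at day 3 and 14% at day 7 were above their controls without overlap. In the values as deposited these groups overlapped, with day 3 array 3 at -0.823 and day 7 array 2 at -0.855. The highest control was then at -0.797, so the separation depends on the offset. The S100a8 changes of 0.31 ± 0.47, 0.47 ± 0.47 and 0.54 ± 0.47 did not pass, and had an adjusted p of 0.079, 0.219 and 0.319 in fits of the compared groups alone, where the SE is not shared with the cord.

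S100a9 in the cerebrum lay at 0.05, 0.07, -0.11 and -0.00838 in the controls and -0.25, 0.08, 0.25 and -0.03 at day 7, which overlap, with a day 7 change of 0.01 ± 0.39 and a 95% interval of -0.79 to 0.81. Ngp lay at 0.06, -0.14, -0.14 and 0.21 in the controls and -0.36, -0.32, -0.34 and -0.00936 at day 7, with a change of -0.26 ± 0.35 and an interval of -0.97 to 0.46. With the rebuilt offset, Elane was below all controls on the 4 cerebral day 7 arrays, at -0.31, -0.34, -0.24 and -0.23 against -0.05, -0.16, 0.37 and -0.17 in the controls, as 12.9% of all genes were, and its change of -0.28 ± 0.17 did not pass. In the values as deposited the groups overlapped, with day 7 array 4 at -0.124 and control array 4 at -0.146. Over all 16 cerebral arrays, Camp ranged from -0.32 to 0.31, Ltf from -0.60 to 0.37, Mpo from -0.61 to 0.10, Retnlg from -0.59 to 0.30 and Padi4 from -0.34 to 0.27. No pair of cerebral days differed for any member (unadjusted p under 0.05 in 0 of 9 each), where 0%, 1.12% and 0.128% of all genes differed between day 3 and day 1, day 7 and day 1, and day 7 and day 3. These tests were against the bounds. Elane stood at -0.40 ± 0.17 for day 7 against day 3, with a 95% interval of -0.76 to -0.05, where its bound was 0.570.

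The difference between the tissues was tested directly, as the change in the cord minus the change in the cerebrum, in which the offset of a day drops out. At day 7 the change from control was higher in the cord than in the cerebrum for all 9 measured members, as for 13% of all genes. The difference was largest for Ngp (4.50 ± 0.50, adjusted p = 7.89e-08), followed by S100a8 (3.72 ± 0.67, adjusted p = 8.68e-05), S100a9 (3.25 ± 0.56, adjusted p = 4.26e-05) and Camp (3.07 ± 0.42, adjusted p = 1.86e-06). Retnlg stood at 2.55 ± 0.69, Ltf at 2.01 ± 0.27, Elane at 1.28 ± 0.25 and Padi4 at 0.81 ± 0.20. Mpo had the smallest, at 0.58 ± 0.20, adjusted p = 0.0328, and its call was lost with 75th percentile scaling (adjusted p = 0.0517), without cerebral controls 1 and 2 (0.114) and without any of 8 of the 16 arrays (adjusted p from 0.0513 to 0.0956). With quantile normalisation S100a8 (1.46, adjusted p = 0.0536), S100a9 (1.08, adjusted p = 0.0794) and Mpo (0.12, adjusted p = 0.794) did not pass.

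At day 1, 1 of 9 members passed the same test, S100a9 at 1.67 ± 0.56, adjusted p = 0.0472, where 4.7% of all genes were called higher. S100a8 had a difference of 1.93 ± 0.67, adjusted p = 0.058, and Retnlg of 1.92 ± 0.69, adjusted p = 0.0674. S100a9 did not pass in a fit of the compared groups alone (adjusted p = 0.0615), in which S100a8 and Retnlg did (adjusted p = 0.0419 and 0.0344). Its call was also lost with 75th percentile scaling (adjusted p = 0.0569), with trend and robust spread (0.0526), and when any of 12 of the 16 arrays was left out, down to 1.2 (adjusted p = 0.128) without array 2 of cord day 1. At day 3, 0 of 9 passed, where 9.27% of all genes did, 2 had an unadjusted p under 0.05 in limma's test, and S100a8 had the largest difference (1.39 ± 0.67, adjusted p = 0.207).

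The cord controls already held more of several members than the cerebral controls. Of 9 members, 5 were higher, where 17.2% of all genes were, namely S100a8 (2.28 ± 0.47, adjusted p = 0.00025), S100a9 (1.77 ± 0.39, adjusted p = 0.00052), Ngp (1.57 ± 0.35, adjusted p = 0.000574), Camp (0.79 ± 0.30, adjusted p = 0.0371) and Mpo (0.43 ± 0.14, adjusted p = 0.0183). Each of these had its 4 cord controls above all 4 cerebral controls, as 15.8% of all genes did. Ltf, Elane, Retnlg and Padi4 differed by 0.02, -0.03, 0.11 and -0.04 and did not pass. Camp and Mpo did not pass without cord control arrays 1 and 2 (0.55, adjusted p = 0.297 and 0.34, adjusted p = 0.168), whereas S100a8, S100a9 and Ngp did. Camp also missed with array weights (adjusted p = 0.0756), without cerebral controls 1 and 2 (0.11) or 3 and 4 (0.139), and without any of 5 of the 8 arrays (0.0621 to 0.0983). Mpo missed with array weights (0.0542), without cerebral controls 3 and 4 (0.142) and without either of 2 single arrays (0.0643 and 0.0677), array 3 of the cerebral controls and array 1 of the cord controls.

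RNA of other tissues also differed between the control groups. All 6 measured genes of a skeletal muscle list were higher in the cord controls, and the mean level of that list was 4.56, 3.94, 1.91 and 0.54 on cord control arrays 1 to 4, against -0.08 to 0.11 on the cerebral controls. On the injured cord arrays it lay between 0.08 and 1.77. Array 4 was also the lowest of the cord controls for each of the 5 members that were higher there, and array 2 the highest for S100a8, S100a9, Ngp and Camp. Genes of marrow erythroid precursors had a mean level between -0.51 and -0.01 on the cord controls and between -0.32 and -0.20 at cord day 7, and 0 of their 5 measured genes rose at cord day 7 (0 with an unadjusted p under 0.05, limma). The part of muscle RNA in the results was not tested beyond leaving out cord control arrays 1 and 2, which left S100a8, S100a9 and Retnlg called at cord day 1 and all 8 members called at cord day 7.

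Other genes of neutrophil granules were taken from lists beside the members. The counts of risen genes in these lists stand beside shares over all genes of 15.8% at cord day 1, 9.28% at cord day 3 and 13.1% at cord day 7, and 1 of 6 or 1 of 5 is near these shares. Day 1 was tested against 0 and the later days against their bounds, so the counts are not a course of levels over time. Of 6 other primary granule genes, 1 rose at cord day 7, Ctsc, the gene of cathepsin C, which activates granule proteases and is also made by macrophages (3.49 ± 0.24, adjusted p = 8.21e-13). Prtn3 (0.38), which encodes proteinase 3, and Ctsg (0.10), which encodes cathepsin G, did not pass at day 7, and Prtn3 rose at day 1 (0.43). Serpinb1a, an inhibitor of the granule proteases, fell at day 1 (-1.30). The median change of the list at day 7 was 0.07.

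Of 8 measured genes of specific and gelatinase granules, 3 rose at cord day 1, 4 at day 3 and 5 at day 7. At day 7 these were Mmp8, the neutrophil collagenase (3.75 ± 0.27), Lcn2, which binds siderophores and is also made by astrocytes (3.21 ± 0.73), Chil3, a chitinase-like protein (2.33 ± 0.54), Hp, haptoglobin (1.31), and Itgb2l, a beta integrin (0.56). Mmp8 stood at 0.96 at day 1, 1.41 at day 3 and 3.75 at day 7, and Lcn2 at 5.34, 5.22 and 3.21. Mmp9 (0.87), Fcnb (0.19) and Cd177 (0.01) did not pass at day 7. In the cerebrum Lcn2 rose at day 1 (4.46) and Mmp8 at day 7 (1.24), and each was the only one of the 8 to pass on that day.

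Genes of the neutrophil surface and of mature neutrophils showed 6 of 9 measured higher at cord day 1, 5 at day 3 and 4 at day 7. Cxcr2, the receptor for the neutrophil-attracting chemokines, rose at day 1 (0.86 ± 0.15) and stood at 0.31 at day 7, which did not pass. Il1r2, a decoy receptor for interleukin 1, stood at 1.25 at day 1 and 0.31 at day 7, and the second of these did not pass. Csf3r, the receptor for G-CSF, did not pass at day 1 (0.39) and rose at day 7 (2.54 ± 0.19), and it also rose in the cerebrum at day 1 (0.89) and day 7 (1.56). Clec4d, a lectin receptor of myeloid cells, rose by 1.75 at cord day 1 and 4.99 at cord day 7.

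Of 6 transcription factors of granulocytes, 4 rose at cord day 1, 3 at day 3 and 2 at day 7. Spi1, the gene of PU.1, which microglia and macrophages also express, rose by 1.62 at cord day 1 and 4.17 at day 7, and by 1.75 and 2.13 in the cerebrum on these days. Cebpe, the factor that drives specific granule genes, stood at 0.17 at cord day 1 and -0.01 at cord day 7, and Gfi1, a repressor needed for neutrophil formation, at 0.22 and -0.27, and none of these passed.

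Genes that recruit neutrophils had 9 of 11 higher at cord day 1, 4 at day 3 and 4 at day 7. Selp, the endothelial P-selectin on which neutrophils roll, rose by 4.75 ± 0.69 at day 1, and Il1b, the gene of interleukin 1 beta, by 2.84 ± 0.50. Cxcl2, a chemokine for neutrophils, stood at 1.38 at day 1 and 0.07 at day 7, and Csf3, the gene of G-CSF, at 0.58 and 0.15, and the day 7 values did not pass. In the cerebrum 4 of the 11 rose at day 1, among them Selp (2.02) and Icam1 (0.63), and Cxcl2 (-0.16) and Il1b (0.32) did not pass.

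Calprotectin signals through the receptors encoded by Tlr4, with its partner Ly96 and the co-receptor Cd14, and Ager. Of these 4 genes, 2 rose at cord day 1 and 3 at day 3 and day 7. At day 7 Cd14 stood at 2.18, Tlr4 at 1.69 ± 0.19 and Ly96 at 1.62, and Ager at 0.11 did not pass. Of 12 other S100 genes, 6 rose and 2 fell at cord day 1, 6 rose at day 3 and 3 rose at day 7. The 3 at day 7 were S100a4 (2.64), S100a11 (1.73) and S100a10 (1.49), which many cell types express.

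**Figure D4:**
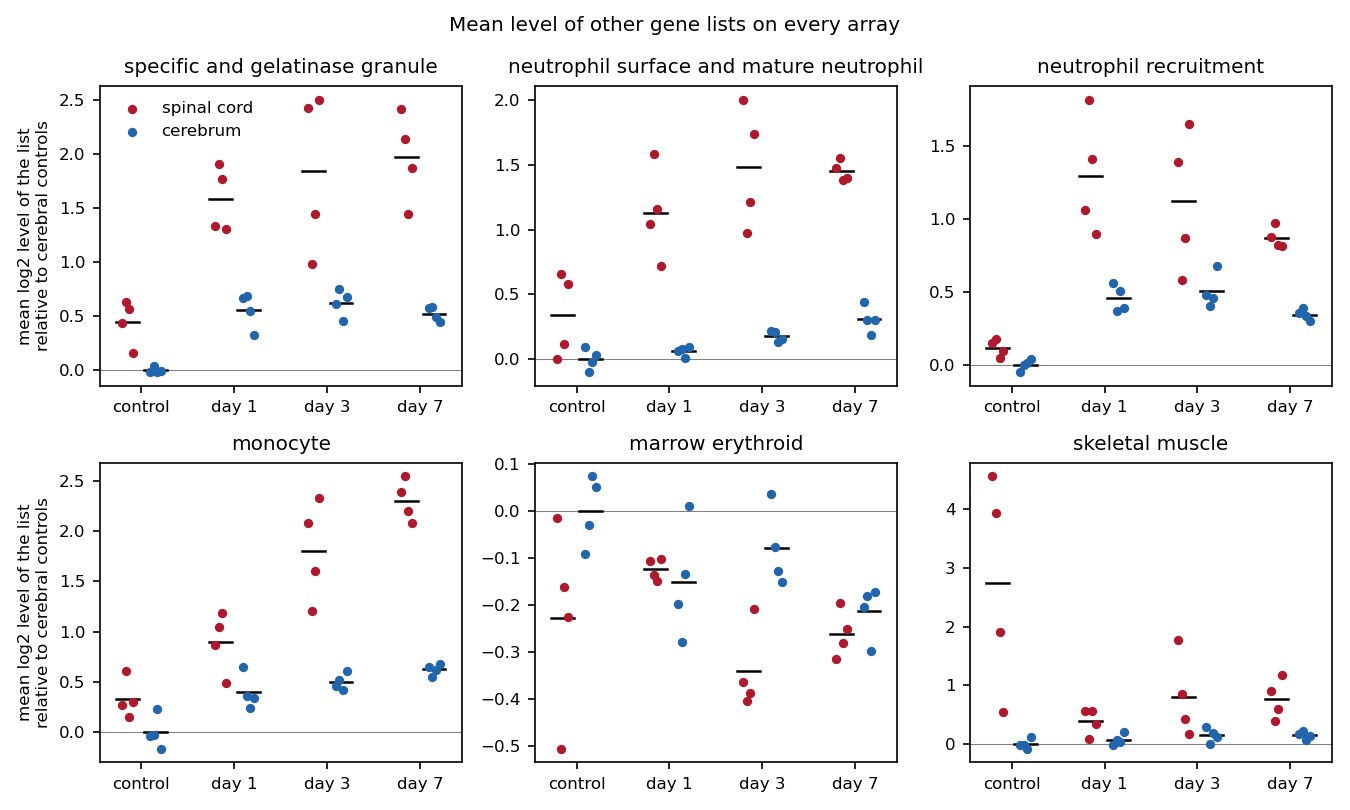
Mean log2 level of 6 gene lists on every array (vertical axis, relative to the cerebral controls) by group (horizontal axis), with spinal cord in red left of cerebrum in blue and a black bar at each group mean (4 arrays). The specific and gelatinase granule list lies between 1.45 and 2.42 at cord day 7, the monocyte list between 2.08 and 2.55, and the marrow erythroid list below 0. Cord control arrays reach 4.56 for the skeletal muscle list.

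Markers of other blood and marrow cells moved beside the members in the cord. Of 5 monocyte genes, 2 rose at cord day 1, 4 at day 3 and 4 at day 7, among them Plac8 (3.23 ± 0.26) and F13a1 (2.65) at day 7, and the mean level of the list lay between 2.08 and 2.55 at cord day 7 and between 0.15 and 0.61 in the cord controls. Of 4 measured genes of platelets and megakaryocytes, Pf4, which macrophages also express, rose at cord day 7 (4.53), and Ppbp (0.49), Itga2b (0.17) and Gp9 (-0.32) did not pass. Precursors of B cells, made in marrow, had 0 of 5 genes changed at cord day 7 (0 with an unadjusted p under 0.05, limma), with a mean level from -0.19 to -0.08. Of 5 genes of mast cells, eosinophils and basophils, Prg2 rose at cord day 7 (0.77). Of 4 measured microglia genes, 1 rose and 2 fell at cord day 1, none passed at day 3 (unadjusted p under 0.05 in 1 of 4, limma) and 1 rose at day 7, Cx3cr1, the fractalkine receptor (1.76). P2ry12, a purinergic receptor of resting microglia, fell at day 1 (-2.23). The mean level of the list had a median of 0.25 in the cord controls, -0.37 at day 1, 0.67 at day 3 and 0.67 at day 7, and array 1 of cord day 3 lay at -0.60 against 0.60 to 1.07 on the other 3 arrays. The part of monocytes in the calprotectin values was not tested.

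Genes whose pattern over the 32 arrays was most like the mean of S100a8 and S100a9 were ranked by Pearson correlation after each set of arrays centred together had been set to a mean of 0. The 10 most alike were Litaf (0.957), P4hb (0.955), Pdcd6ip (0.947), Hdlbp (0.947), Msrb1 (0.947), Eif4e2 (0.940), Thbs1 (0.940), Bach1 (0.940), Plat (0.937) and Cald1 (0.936). Of the other members, Retnlg ranked 144 (0.888), Ngp 401 (0.854), Ltf 1149 (0.778), Camp 1204 (0.774), Padi4 1420 (0.752), Elane 1631 (0.731) and Mpo 2305 (0.667). These correlations include the difference between the tissues and are a description of these arrays.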

How the data were processed

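RNA of 32 samples in 8 groups of 4 was measured on 1-colour arrays, from 10 ng of RNA per sample with a biotin label, per the labels' protocols. The deposited values are log2 values per probe, from -5.582 to 8.042, with array medians from -0.0553 to 0.0333. How the authors summarised the probes, and on which build, is not given in the sources used here. Of 22206 probes, 19572 carry 1 gene symbol and 2634 none in the platform annotation used, which gives 19505 genes, and probes of 1 gene were averaged. Precision is limited by the number of arrays.

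Each probe had been centred before deposit, since controls with day 1 had a median of 0 in 100% of probes. The arrays of day 3 and day 7 were each centred against the 8 controls, which held in 86.8% of 5647 and 86.4% of 5142 probes that could be tested. The day 1 arrays as partners gave 69.3% and 70.2%. The offset of each probe was solved from this match, and its median size was 0.0718 and 0.0923. Where a comparison crosses sets of arrays centred apart, a change had to exceed the half-width of the offset's range plus an allowance of 0.196 at day 3 and 0.262 at day 7, the largest shortfall seen. For day 7 against day 3 the bounds of both days were added, which gave 0.458 to 0.570 for the members. Differences between tissues at 1 day carry no offset and were tested against 0.

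All arrays entered 1 limma fit of 8 group means with 24 residual degrees of freedom and no covariate, 16 comparisons were made, and an adjusted p under 0.05 was called. Replicate numbers were given in accession order and do not pair arrays. Alternatives were the values as deposited, the offset taken as exact, an allowance at the 95th percentile (chosen after seeing the data), quantile and 75th percentile scaling, array weights, trend and robust spread, another rule for probes, the compared groups alone, and left-out arrays. The fit was tested on simulated data. The members and the 18 lists were chosen with earlier results of these data known. Every measured member is named, list genes are named as the largest changes and as genes with a stated role, and genes like calprotectin by correlation rank. Promoters and coordinates come from RefSeq's GRCm38.p6 tables. Tools were R 4.3.3, limma 3.58.1, Python 3.11.15, numpy 2.4.6, pandas 2.3.3 and matplotlib 3.10.9.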

Additional observations from a re-analysis of the deposited data

Results flagged for a closer look

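The change in the cord exceeded that in the cerebrum at day 7 by 4.50 for Ngp, 3.72 for S100a8, 3.25 for S100a9, 3.07 for Camp, 2.55 for Retnlg, 2.01 for Ltf, 1.28 for Elane, 0.81 for Padi4 and 0.58 for Mpo on the log2 scale, each by limma's test of the difference itself (adjusted p from 7.89e-08 for Ngp to 0.0328 for Mpo), and at day 1 by 1.67 for S100a9. The Mpo call was lost without any of 8 of the 16 arrays, and the S100a9 call at day 1 without any of 12 of the 16 and in a fit of the compared groups alone (adjusted p = 0.0615).

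An array far from the other 3 of its group was found in 5 of 72 combinations of member and group. Some such arrays arise by chance, and the combinations share arrays, so this count is not set against a chance rate. Retnlg at cord day 3 was highest on array 1, at 3.25, the array with the weight of 0.225. In the cerebrum Mpo was lowest at day 1 on array 2 (-0.56) and at day 3 on array 3 (-0.61), Elane was lowest at day 1 on array 3 (-0.36), and Ngp at day 7 was highest on array 4 (-0.0094).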

How the results depend on the processing

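Counts of members called in the cerebrum stayed at 0 of 9 in every comparison with control and between days under each alternative run. With quantile normalisation on top, the cord counts were 7 at day 1 (4 in the fit reported), 0 at day 3 (1), 5 at day 7 (8), 3 for the difference between tissues at day 1 (1), 1 for day 3 against day 1 (0), and 2 for day 7 against day 1 (7) and against day 3 (5), and S100a9 turned to -0.22 for day 7 against day 1. These counts pool both directions. At cord day 1 Mpo was lower in both fits, Ngp and Camp joined as lower and Padi4 as higher. Over all 19505 genes this setting called 6020 at cord day 1, 1980 at day 3 and 2506 at day 7. For the difference at day 1 it called 3053, and for day 3 against day 1, 544. Day 7 against day 1 had 1287, and against day 3, 33. The fit reported called 2554 genes higher and 2510 lower at cord day 7. The values as deposited gave 3 at cord day 3, where 6250 of all genes were called. With the offset taken as exact the counts were 3 at cord day 3, 1 for day 3 against day 1 and 8 for day 7 against day 3, and with the allowance at the 95th percentile 2, 1 and 8. Over all genes the calls were 7470, 6895 and 5236 with the exact offset, and 6796, 6068 and 4065 with that allowance. Array weights gave 0 at cord day 3, 3 and 1 for the differences at day 1 and day 3, 2 for day 3 against day 1 and 3 for the controls (5). In that order, array weights called 3078, 3073, 2185, 1909 and 6667 of all genes. In fits of the compared groups alone the counts were 0 at cord day 3, 2 for the difference at day 1 and 3 for day 7 against day 3. Those fits called 1770, 2289 and 308 of all genes. The difference at day 1 counted 0 with 75th percentile scaling, with trend and robust spread, without cerebral controls 1 and 2 and without 3 and 4, and 2 without cord controls 1 and 2. In that order, 2249, 2151, 1966, 1056 and 1814 of all genes were called. The controls counted 3 without cerebral controls 3 and 4 and 3 without cord controls 1 and 2, where 5075 and 5385 of all genes were called. Leaving out each array in turn gave 3 to 5 at cord day 1, 0 to 1 at day 3 and 7 to 9 at day 7, 0 to 3, 0 to 1 and 8 to 9 for the differences, 0 to 1, 5 to 7 and 5 to 7 for day 3 against day 1, day 7 against day 1 and day 7 against day 3, 3 to 5 for the controls and 0 to 0 in the cerebrum. In that order, calls over all genes ran from 5214 to 5828, 2701 to 3631 and 4545 to 5126 in the cord. For the differences they ran from 1564 to 2306, 1393 to 2395 and 4653 to 5465. Between cord days they ran from 1059 to 2009, 3319 to 3845 and 522 to 929, and for the controls from 6023 to 6467. Over all members and alternatives, 740 results that were called stayed so, 77 did not pass and 1 reversed, and of those not called 50 passed and 1985 did not. The causes of these changes were not tested. No paired analysis was possible because the replicate numbers were given in accession order and the labels carry none.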
